A study of Mus musculus with 4 samples.

Results

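The open chromatin of Tsc22d1, Tsc22d2 and Tsc22d4, 3 genes of the TSC22 domain family, was described in hair follicle stem cells with and without the genotype for loss of the transcription factors NFIB and NFIX. A peak of open chromatin was given to a gene when its summit lay nearer to the body of that gene than to any other protein-coding gene and within 100 kb of it. Wild-type and knockout peaks with 1 bp or more in common were merged into regions. This gave 27 regions of 79122 in all, made of 25 wild-type and 16 knockout peaks: 6 at Tsc22d1, 16 at Tsc22d2 and 5 at Tsc22d4. The genes were chosen by the class and height of these same peaks in earlier results, so those counts and heights are a description, with no test.

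TSC22 proteins share a leucine zipper and, next to it, the conserved TSC box, through which family members pair with one another. Tsc22d1 was first found in mouse cells as a transcript induced by TGF-beta, and it makes long and short proteins from separate start sites. The long family members are also known to bind the pseudokinase NRBP1 and the WNK kinases, which sense cell volume and chloride and act through SPAK and OSR1 on ion cotransporters. Tsc22d4 is known from mouse liver as a regulator of lipid and glucose metabolism.

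Accessibility was read by ATAC-seq, in which a transposase cuts and tags open DNA, in stem cells from male dorsal skin at 70 days of age, when the hair cycle was in its second resting phase. All mice carried the alleles R26-YFPfl/fl, NFIXfl/fl and NFIBfl/fl, so Nfib and Nfix had loxP sites in both groups. The 2 wild-type (WT) mice had no Cre, and the 2 knockout (dKO) mice also carried Sox9-CreER, an inducible Cre that acts in cells expressing Sox9. The sort took cells without DAPI or Sca-1 signal and with integrin alpha 6 and CD34, and for dKO also YFP, so the gates differed by the Cre reporter. No source used here gives the time of induction.

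The authors deposited 1 peak list per genotype, so no spread between mice can be had and no test of genotype was made. The lists held 68192 WT and 63545 dKO peaks off the mitochondrial genome, with a median pileup (reads or fragments stacked at the summit) of 73 in WT and 38 in dKO. The lowest local background was 5.29 in WT and 2.73 in dKO, so that WT was higher in background as well as in peaks. Pileup was divided by the median of its own list, called scaled pileup here, and the 51129 regions shared by both lists then had a median log2 dKO/WT ratio of −0.15. Of 8 hair follicle stem cell markers, 7 had a peak within 1 kb of a gene end in both lists (summed scaled pileup 28.5 in WT and 26.7 in dKO). Nfatc1 was the one without a peak there. Of 4 markers each, immune genes had 0 in either list, and melanocyte genes had 2 in each list (summed 15.3 in WT and 14.7 in dKO), with Dct and Tyr at 0. Fibroblast genes had 2 (3.67 and 2.42), endothelial genes 2 (1.77 and 1.18), and differentiated epidermis genes 4 in WT and 3 in dKO (6.16 and 5.63). The part of these differences in the results was not tested. In pooled cells, fewer cells with an open region and less opening per cell cannot be told apart.

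Across the 3 genes, regions found in WT alone outnumbered those found in dKO alone, and most of them lay at Tsc22d2. Of the 27 regions, 12 were WT-only (44.4%, exact 95% interval of counting error 25.5 to 64.7), where 21.2% of all regions were WT-only. There were 2 dKO-only regions (7.41%, 0.910 to 24.3), where 14.2% of all regions were dKO-only, and 13 shared ones. Of the 16 regions of Tsc22d2, 9 were WT-only, 1 was dKO-only and 6 were shared. In the same order Tsc22d1 held 1, 1 and 4, and Tsc22d4 held 2, 0 and 3. These intervals count regions, not reads, and treat regions of one locus as independent, which they may not be. As the genes were chosen by the class of these peaks, the intervals are no test against the shares over all regions. Each of the 3 genes had a region at a gene end, and all 3 of these were shared, where 90.2% of all gene-end regions were shared and 6.21% WT-only. The 14 regions within the genes held 8 WT-only, 1 dKO-only and 5 shared ones, where 25.6% of all gene-body regions were WT-only and 14.4% dKO-only. Between genes the counts were 4, 1 and 5 of 10, where 22.3% of all such regions were WT-only and 18.4% dKO-only. The body of Tsc22d2 away from its ends had 7 regions, 6 of them WT-only, 1 dKO-only and 0 shared.

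**Figure D1:**
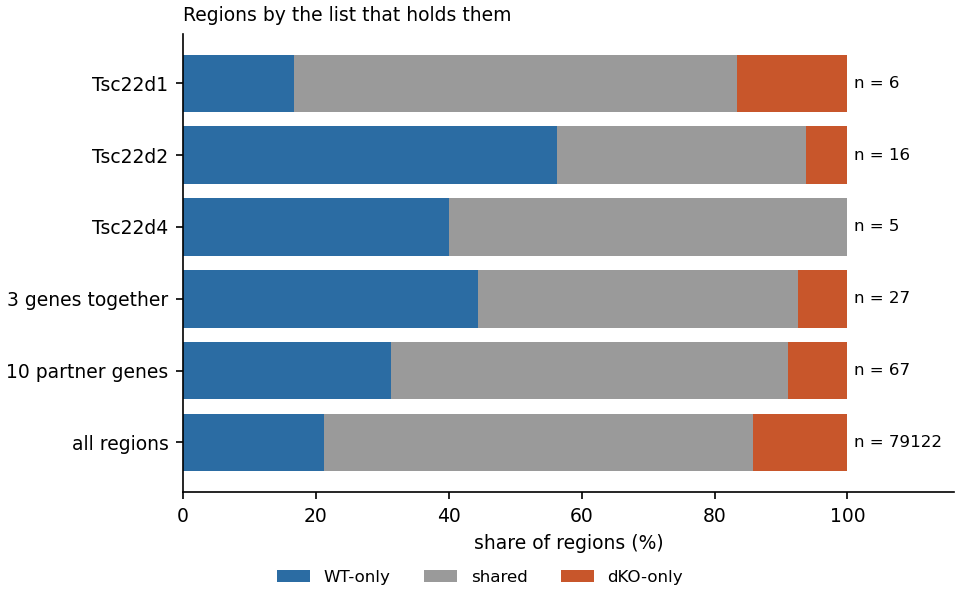
Share of regions (%) that were WT-only, shared or dKO-only at each TSC22 gene, over the 3 genes, over 10 partner genes and over all regions, with the number of regions at the right. WT-only regions made up 9 of 16 at Tsc22d2 and 1 of 6 at Tsc22d1.

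Tsc22d1 (gene 21807, chromosome 14, 76414961 to 76507765, mm10) had its strong regions at its lower and upper start sites, where scaled height was lower in dKO at the first, within counting error, and higher in dKO at the second. RefSeq places 5 transcript starts on the plus strand in 3 groups. The first group lies at the gene's lower end and 0.86 kb above it, 1 start lies 73.5 kb in, and the last group lies 89.3 and 89.5 kb in, near the upper end. The stretches of 250 bases before to 50 bases after 2 of these starts are shown, because the contrast described next lies between them. Both are RefSeq sequence on the plus strand of GRCm38.p6 (mm10) and 5′ to 3′, and capitals mark the 27 bases from the WT summit to the dKO summit.
lower start, chr14:76414711-76415010: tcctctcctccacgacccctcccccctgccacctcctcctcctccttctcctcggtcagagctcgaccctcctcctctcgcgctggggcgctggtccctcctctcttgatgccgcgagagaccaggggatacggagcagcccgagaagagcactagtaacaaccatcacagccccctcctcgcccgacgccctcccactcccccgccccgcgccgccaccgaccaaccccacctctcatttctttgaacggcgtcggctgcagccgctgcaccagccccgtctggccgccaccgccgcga
upper start, chr14:76504260-76504559: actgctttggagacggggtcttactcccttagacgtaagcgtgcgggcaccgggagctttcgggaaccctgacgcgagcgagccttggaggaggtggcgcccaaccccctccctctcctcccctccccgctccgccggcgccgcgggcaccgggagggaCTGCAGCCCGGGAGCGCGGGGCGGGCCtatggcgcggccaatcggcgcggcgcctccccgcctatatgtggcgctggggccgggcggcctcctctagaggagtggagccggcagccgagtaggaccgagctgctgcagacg

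The window of the lower start was covered in full by a region (76413856 to 76415660) whose summit lay 689 bp before the start, at the same base in both genotypes, so the printed window holds no capitals. Its GC content was 69.0%, and that of the printed upper window was 72.7%, where the median of 32851 RefSeq promoter windows was 52.7%. The window of the other upper start, 89.3 kb in and not printed, had 49.7%. The letters searched for an NFI full site were TTGGC and GCCAA with any 5 bases between them. Those for a single NFI arm were TTGGCA, which is longer than the arm in the full site, and those for an AP-1 site were TGANTCA. Read on both strands, each of these was found in 0 of the 5 Tsc22d1 windows. The shorter letters GCCAA do stand in the printed upper window and in those of the starts 0.86 and 73.5 kb in. The share of all promoter windows with GCCAA was not counted, so these letters are not read as an NFI site here. Of all promoter windows, 0.0365% held the full site, 14.1% the letters TTGGCA and 7.81% the AP-1 letters. The promoter table gave no entry for Tsc22d2 and Tsc22d4.

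At the lower start of Tsc22d1 the pileup was 210 in WT and 86 in dKO, which is 2.88 and 2.26 list medians. The dKO/WT ratio of scaled pileup was 0.787 (95% counting interval 0.605 to 1.02, exact conditional binomial), so WT was higher by an amount within counting error. At the upper starts (region 76503257 to 76506378) the pileup was 220 in WT and 169 in dKO, or 3.01 and 4.45 list medians, a ratio of 1.48 (1.20 to 1.81). The WT and dKO summits there lay 91 and 65 bp before the last start. Set against each other within the gene, which needs no scaling of the lists, the upper ratio was 1.88 times the lower one (exact conditional interval of counting error 1.34 to 2.62). Tsc22d1 was chosen by the heights of these same peaks, so that interval is no test of a difference between genotypes. The deposited fold enrichment over local background did not show this contrast: it went from 6.80 in WT to 8.28 in dKO at the lower start and from 7.15 to 8.16 at the upper starts. The local background behind those folds was 30.0 in WT and 9.50 in dKO at the lower start, and 29.9 and 19.8 at the upper starts. No region overlapped the window of the start 73.5 kb in.

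Between these starts the regions of Tsc22d1 were weak. A shared region 27.5 kb into the gene (76442139 to 76442807) had a pileup of 47 in WT and 18 in dKO (ratio 0.736, 0.402 to 1.29), and one 65.0 kb in had 19 in WT and 17 in dKO (1.72, 0.839 to 3.49). Both intervals include no change, and the second region was the only shared one of the 3 genes at least 1.5-fold higher in dKO, where 15.2% of all shared regions were. A WT-only region 58.7 kb in (76473540 to 76473808) had a pileup of 34, and 44.7% of WT regions within 20% of that height had no dKO peak. The dKO-only region lay 49.2 kb below the gene (76365314 to 76365959) with a pileup of 25. Of dKO regions within 20% of that height, 24.4% had no WT peak. The tie of the dKO-only region to Tsc22d1 rests on the assignment to protein-coding genes within 100 kb. Counting genes of any type, the nearest was Gm41215, 1.35 kb away.

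**Figure D2:**
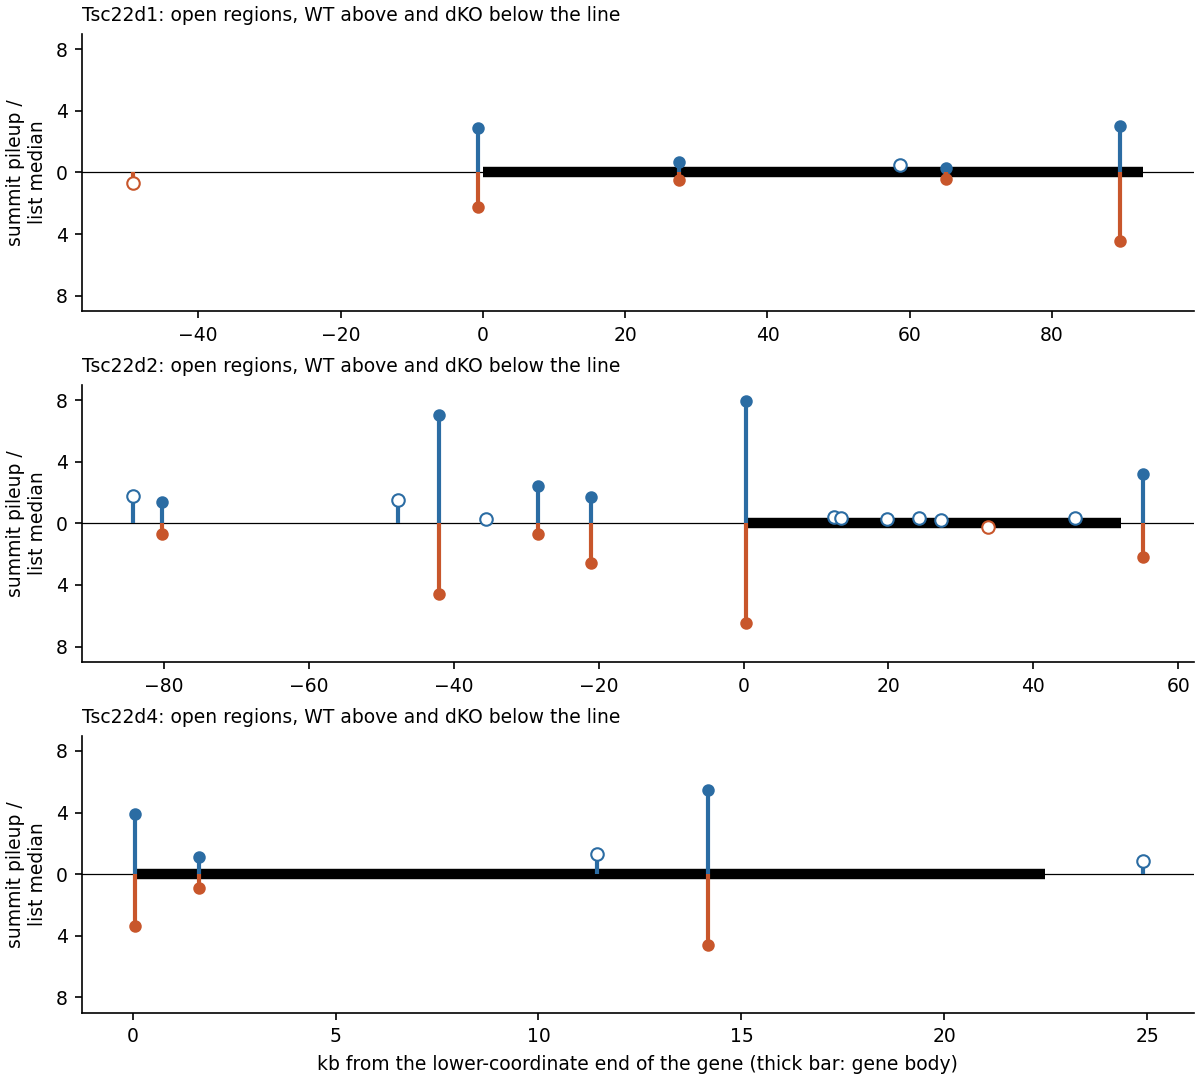
Regions at the 3 genes by kb from the lower-coordinate end of the gene (x axis), with summit pileup divided by the list median (y axis), WT upwards in blue and dKO downwards in orange. Filled points are shared regions, open points are regions of 1 list and the thick bar is the gene body. At Tsc22d2 the open WT points are low inside the gene. Below it, those at 84.4 and 47.7 kb are higher and that at 35.6 kb is low.

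Tsc22d2 (gene 72033, chromosome 3, 58414702 to 58466787) had the most regions and the largest lean towards WT of the 3 genes. On its lower side the next protein-coding gene, Pfn2, is 566.9 kb away, and 7 regions lay in the first 84.4 kb of that gap. Among these, 3 were WT-only and 4 shared. Of the shared ones, 3 were at least 1.5-fold lower in dKO, and the one nearest to the gene was higher in dKO. These 3 were the only ones lower by that much among the 13 shared regions of the 3 genes. Of all shared regions, 21.7% were lower by that much. The tie of these 7 regions to Tsc22d2 rests on the assignment to protein-coding genes within 100 kb. Counting genes of any type, the nearest were Gm32847 for 2 of them and Gm20128 for 5, and none lay within 20 kb of Tsc22d2. Under either alternative Tsc22d2 kept 9 regions, of which 6 were WT-only, 1 was dKO-only and 2 were shared.

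The region 28.3 kb below Tsc22d2 (58385676 to 58386927) showed the largest difference among the shared regions of the 3 genes. Its pileup was 176 in WT and 26 in dKO, or 2.41 and 0.684 list medians, a ratio of 0.284 (0.180 to 0.430). Of all shared regions, 1.90% had a lower ratio. The summits lay 381 bp apart, the widest shift among the 13 shared regions, so the dKO peak stood at another base of the same region. The ratio thus compares heights at 2 places, and with summits within 200 bp in place of overlap the region was not shared. Its deposited fold enrichment was also lower in dKO, at 7.06 against 10.5 in WT.

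The next region towards the gene, 21.0 kb below it (58392824 to 58393980) had a pileup of 126 in WT and 97 in dKO, or 1.73 and 2.55 list medians. The ratio was 1.48 (1.12 to 1.94), and both summits fell on the same base. The ratio of this region was 5.21 times that of its neighbour (3.13 to 8.85), a contrast that needs no scaling, but whose regions were picked as the highest and lowest ratios of the gene. The deposited fold enrichments, 12.3 in WT and 13.004 in dKO, were close to each other here.

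Further out, the strongest distal region of the 3 genes lay 42.1 kb below Tsc22d2 (58371040 to 58373120), with a pileup of 514 in WT and 174 in dKO. This was 7.04 and 4.58 list medians, a ratio of 0.650 (0.544 to 0.774), and the dKO list split it into 2 peaks. The region 80.3 kb below the gene (58333829 to 58334599) had 99 in WT and 26 in dKO (0.505, 0.314 to 0.784). At both, the deposited fold enrichment pointed the other way, from 10.3 in WT to 11.8 in dKO at 42.1 kb and from 5.89 to 7.24 at 80.3 kb. The local background was 48.8 in WT and 13.8 in dKO at the first of these, and 15.97 and 2.73 at the second, the last being the lowest value of the dKO list.

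The WT-only regions of Tsc22d2 were all weak inside the gene, and strong as well as weak ones lay below it. Those 84.4 kb (58330031 to 58330797) and 47.7 kb (58366714 to 58367254) below the gene had WT pileups of 129 and 108. At the same scaled height they would have had pileups of 67.2 and 56.2 in the dKO list, whose lowest peak had 9. Of WT regions with a pileup of 108 or more, 4.04% had no dKO peak (3.80 to 4.28). That set has no upper limit and holds all stronger regions, so its share is not like those given for a range of heights. Another WT-only region, 35.6 kb below the gene (58378941 to 58379322), had a pileup of 22. The 6 WT-only regions inside the gene body, among them one 24.2 kb in (58438766 to 58439060) with a pileup of 24, ran from 16 to 28. They correspond to 8.33 to 14.6 in the dKO list, next to its lowest pileup of 9. Of WT regions with a pileup of 16 to 28, 57.5% had no dKO peak (56.6 to 58.5), so 7 of the 9 WT-only regions of Tsc22d2 had heights at which a missing dKO peak was common. The dKO-only region 33.7 kb into the gene (58448350 to 58448673) had a pileup of 9 the lowest of its list.

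The lower gene end of Tsc22d2 carried the strongest region of the 3 genes (58414156 to 58417452), with a pileup of 579 in WT and 247 in dKO. In list medians this was 7.93 and 6.50, a ratio of 0.820 (0.703 to 0.953), with the summits 267 bp apart. A region 3.08 kb above the other end (58469482 to 58471492) had 232 in WT and 84 in dKO (0.696, 0.535 to 0.896). Over its 6 shared regions Tsc22d2 summed to a pileup of 1726 in WT and 654 in dKO, a scaled ratio of 0.728 (0.664 to 0.797), where all shared regions together had 0.881. The deposited fold enrichment was higher in dKO at the gene end (6.03 in WT, 6.83 in dKO) and in the region above the gene (7.48 and 9.02). Summed over the 6 shared regions its log2 dKO/WT ratio was 0.0652, the opposite direction to scaled pileup.

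Tsc22d4 (gene 78829, chromosome 5, 137745969 to 137768453) lies among close neighbours, 4.80 kb above Nyap1 and 10.5 kb below Ppp1r35, and the dKO/WT ratios of its 3 shared regions were close to one another. The region at its lower gene end (137745584 to 137746470) had a pileup of 287 in WT and 127 in dKO (ratio 0.850, 0.684 to 1.05). A region 1.64 kb into the gene (137747447 to 137747892) had 81 and 35 (0.830, 0.542 to 1.25). The strongest region lay 14.2 kb in (137759662 to 137760643), inside the gene and away from its ends, with 400 in WT and 174 in dKO (0.836, 0.695 to 1.001). The highest of these ratios was 1.02 times the lowest (0.642 to 1.66). They lay between 40.8% and 43.3% of the way up the ranked ratios of all shared regions.

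Tsc22d4 also had WT-only regions in the gene and above it. The one 11.4 kb in (137757181 to 137757509) had a WT pileup of 95, but it stood on a local background of 34.2 and its deposited fold enrichment was 2.73. The one 2.42 kb above the gene (137770801 to 137771313) had a pileup of 63 on a background of 5.29, a fold enrichment of 10.2. Of WT regions with a pileup of 63 or more, 8.73% had no dKO peak, and of those with 95 or more, 5.06%. Both sets hold all stronger regions too, so the shares are not those of regions of like height.

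**Figure D3:**
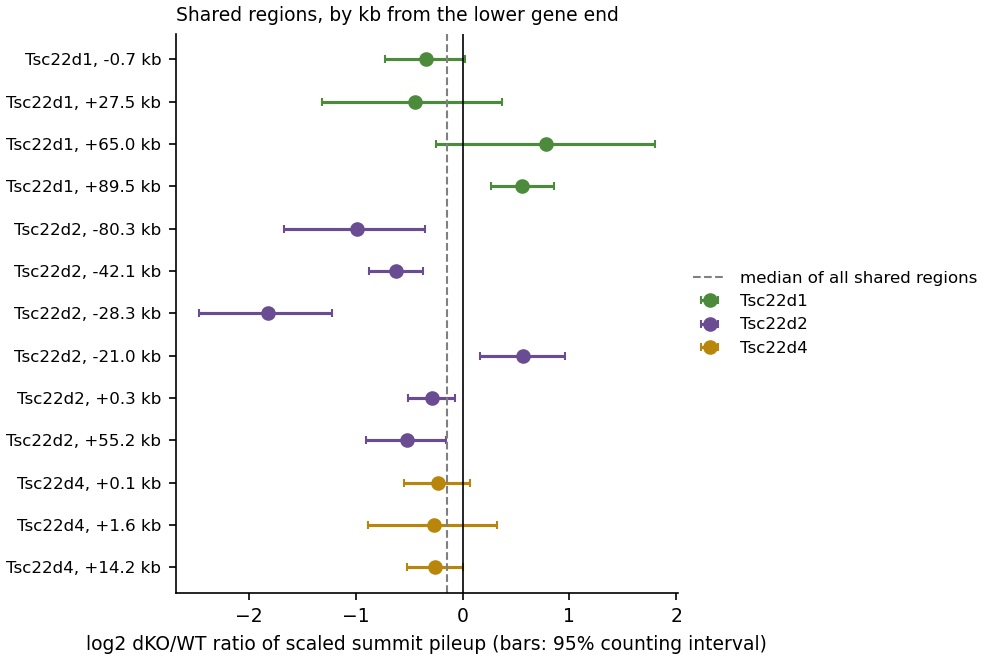
Log2 dKO/WT ratio of scaled summit pileup (x axis) for each of the 13 shared regions (y axis, by gene and kb from the lower gene end), with exact 95% counting intervals as bars and the median of all shared regions, −0.15, as a dashed line. The values run from −1.82 to 0.78, and the 3 Tsc22d4 regions lie together between −0.27 and −0.23.

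The shared regions differed among themselves more at Tsc22d1 and Tsc22d2 than at Tsc22d4, with log2 ratios from −0.44 to 0.78, from −1.82 to 0.56 and from −0.27 to −0.23. In all, 10 of 13 lay below the median of all shared regions, and the median of the 13 was −0.29. The same 10 lay below 0 with pileup divided by the lowest background or by the median of gene-end regions. Deposited fold enrichment gave another picture: it was lower in dKO at 2 of the 13 regions and higher at 11 (84.6%), against 57.8% of all shared regions where it was higher. For 8 of them (61.5%) scaled pileup was lower and fold enrichment higher in dKO, against 24.1% of all shared regions. The regions where both were lower were those 28.3 kb below Tsc22d2 and 27.5 kb into Tsc22d1. Summits moved by a median of 26 bp, against 45 bp over all shared regions, and the WT peak was the wider one in 9 of 13 (69.2%), the same share as over all shared regions.

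**Figure D4:**
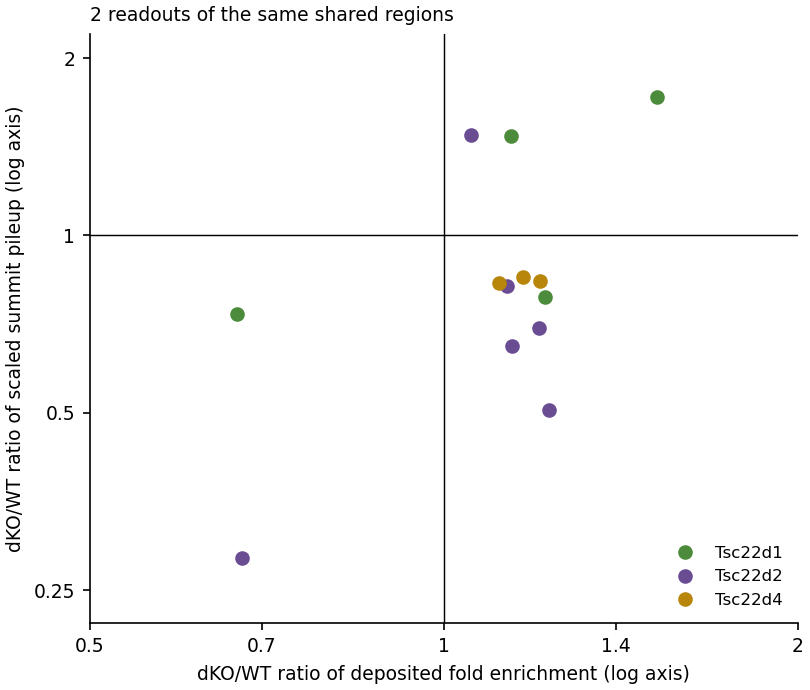
The dKO/WT ratio of scaled summit pileup (y axis) against that of deposited fold enrichment (x axis), both on log axes, for the 13 shared regions. The lower right holds the 8 regions with lower scaled pileup and higher fold enrichment in dKO, and the lower left holds the 2 where both were lower.

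With respect to the 100 kb limit, the farthest region taken in lay 84.4 kb below Tsc22d2, and the nearest regions left out lay 135.9 kb from Tsc22d1 (shared, pileup 250 in WT and 120 in dKO) and 160.5 kb from Tsc22d2 (shared, 38 and 17). Both genes have a gene for a stress-associated endoplasmic reticulum protein as their upper neighbour, Serp2 at 25.05 kb from Tsc22d1 and Serp1 at 55.2 kb from Tsc22d2. Among 15768 protein-coding genes with a region, 82 had a surplus of WT-only over dKO-only regions at least that of Tsc22d2, which counts itself and sets this limit. At least as many regions as at Tsc22d2 were found at 774 genes.

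The other family gene, Tsc22d3, which encodes the glucocorticoid-induced leucine zipper protein, and 9 genes of the NRBP and WNK pathway had 67 regions together. Of these, 21 were WT-only (31.3%, 20.6 to 43.8), 6 were dKO-only (8.96%, 3.36 to 18.5) and 40 were shared, beside the 21.2% and 14.2% of all regions. The median log2 ratio of their shared regions was −0.20. There were more WT-only than dKO-only regions at 6 of the 10 genes, equal numbers at 4 and the opposite at 0. The 4 with equal numbers, Nrbp1, Nrbp2, Wnk3 and Wnk4, had 1 shared region each and no other, so they could not lean either way. At Wnk2 and Oxsr1 the lean rested on 1 region each. The share of all genes with such a lean was not counted, so 6 of 10 is no result about the pathway. Over all regions 16743 were WT-only and 11250 dKO-only. Tsc22d3 had 13 regions, 4 of them WT-only and the others shared, and a gene-end region with a pileup of 64 in WT and 21 in dKO (ratio 0.630, 0.366 to 1.05).

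The pathway genes are taken here from kinase to transporter. Wnk1, the broadly expressed WNK kinase, had 10 regions, of which 5 were WT-only and 1 dKO-only, with gene-end ratios of 0.673 (0.496 to 0.903) and 0.811 (0.659 to 0.994). Wnk2 had 1, 0 and 6, with 139 in WT and 79 in dKO at the gene end (1.09, 0.818 to 1.45). Wnk3 and Wnk4 had 1 shared region each, and that of Wnk3, at the gene end, had 87 and 52 (1.15, 0.798 to 1.64). The Wnk4 region, at the gene end, had a pileup of 224 in WT and 42 in dKO, a ratio of 0.360 (0.253 to 0.503), the lowest at a gene end of this list. Stk39, the gene of the kinase SPAK, had 24 regions, 7 of them WT-only and 5 dKO-only, and its gene end was higher in dKO, with 393 in WT and 257 in dKO (1.26, 1.07 to 1.47). Oxsr1, which encodes OSR1, had 1, 0 and 2, with 590 and 266 at the gene end (0.866, 0.747 to 1.003). Slc12a2, encoding the cotransporter NKCC1 on which these kinases act, had 3, 0 and 3, with 417 and 147 at the gene end (0.677, 0.557 to 0.819). Nrbp1 and Nrbp2, pseudokinase genes, had 1 shared region each, with ratios of 0.746 (0.608 to 0.911) and 0.763 (0.622 to 0.931).

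Genes with like patterns were taken from those with a number of regions within 25% of each member's. Likeness was the distance between the shares in each class and the median log2 ratio of shared regions. It rests on 1 list per genotype, and it says nothing of shared function. Nearest to Tsc22d2 was Ahcyl2, with 13 regions, in the same order 7, 1 and 5, and a median log2 ratio of −0.48, beside −0.57 at Tsc22d2. Atl2 followed with 10, 0 and 8 (−0.63). Genes with the same counts as the other members came nearest to them: Plbd1, Mta3 and Gm17266 had the counts 1, 1 and 4 of Tsc22d1, and Sox21, Numa1 and Gtf3a had the counts 2, 0 and 3 of Tsc22d4.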

How the data were processed

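Bowtie2 2.2.9, Picard and MACS2 and the builds mm10 and GRCm38 are named in the submitters' processing notes, with no role or order. The authors deposited 1 peak list per genotype, in the layout of MACS2 per the file headers. GEO labels name the same list for both mice of a genotype. No source used here states how mice were combined, or read shifting or duplicate removal. The deposited signal column is the pileup at the summit, not scaled for depth. The deposited fold is a ratio to local background, with 1 added to both terms. The deposited −log10 p and −log10 q columns lost their header names and were identified by position. A Poisson p recomputed from pileup and background matched the first within 0.001 for 99.98% (WT) and 99.997% (dKO) of peaks whose −log10 p was below 250.

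Mitochondrial peaks, 5 in WT and 3 in dKO, were left out. Genes came from a RefSeq table of GRCm38.p6 with 21887 protein-coding genes. Gene ends were taken within 1 kb. In a region with several peaks of a list, the highest one was used. Regions named are those at gene ends, the 3 strongest shared ones, up to 4 of each single list and up to 4 past 1.5-fold in each direction whose counting interval leaves out 1, per gene. The regions 21.0 kb below Tsc22d2 and 65.0 kb into Tsc22d1 fall outside this rule and were chosen after their values were seen. Genes named are the members, the partner list and the 3 most alike per member, with neighbouring genes added to place them. For Tsc22d2, 1 gene under this rule is not reported here. The members and lists were chosen with earlier results of these data known. The steps were run with Python 3.11.15, SciPy 1.17.1 and pandas 2.3.3 and tested on simulated data. The simulated WT and dKO peaks of a shared region had the same position, so shifted or split peaks were not tested. Intervals are exact, at 95%, and cover counting error only. Alternatives changed the overlap, threshold, list length, depth, gene assignment and scale.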

Additional observations from a re-analysis of the deposited data

How the results depend on the processing

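At the 3 genes the surplus of regions in WT alone kept its direction under all 8 alternatives tried, with 8 to 14 WT-only and 1 to 5 dKO-only regions. For the 3 genes together, the number of dKO-only regions, 2, became 5 with summits within 200 bp in place of overlap. It became 1 with nearest genes within 20 kb or of any type. With either of these gene rules the 9 WT-only and 6 shared regions of Tsc22d2 became 6 and 2. With the summit rule they became 11 and 4, because the WT and dKO summits lay farther apart than 200 bp at its gene end and 28.3 kb below it. The log2 ratio of summed scaled pileup over shared regions, −0.28, became −0.0776 with pileup divided by the gene-end median, and turned to 0.11 with the deposited fold enrichment. By gene, that enrichment turned the ratio from −0.46 to 0.0652 at Tsc22d2 and from −0.25 to 0.24 at Tsc22d4. The median of all shared regions was 0.074 on that measure and 0.058 with the gene-end median. The cause was not tested. Tsc22d2 kept 5 of 9 WT-only regions by count at a q value of 1e-05 or less. With WT scaled down to the dKO background, 1 of the 12 WT-only regions was lost. For partner genes only the q value of 1e-05 and lists of equal length were tried. Their counts stayed within 1.5 times of those given, and dKO-only regions went from 6 to 4 at that q value. No paired analysis was possible because each genotype has 1 list. Leaving out a mouse was not possible for the same reason. The depth of a list limits which weak regions can be called in it.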
